A study of Homo sapiens with 6 samples.

Results

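MYC, its dimerisation partner MAX and the repressors that compete for MAX were examined in cells labelled A549, a human lung adenocarcinoma line, after treatment with B35, an inhibitor of the histone demethylase LSD1. The network was taken as 8 genes, MYC, MAX, MXD1, MXD3, MXD4, MXI1, MNT and MGA, out of 58735 gene identifiers in each library, and all 8 passed the filter on low counts that left 14773 genes tested. They were chosen by symbol with the difference in counts between B35 and control libraries already known, so their own changes are given as description and nothing is read from whether they passed a test. Partners outside these 8 genes and the genes that MYC is known to control were followed through separate lists. These lists were also chosen with earlier results of these data known, so their counts are description too.

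The study compared 3 libraries of untreated cells with 3 libraries of cells given B35 at 2 µM, all collected at 72 h. Both groups were labelled wild type, and both grew in DMEM with serum and antibiotics. No solvent was named for the untreated cells, and nothing in the labels ties each library to a culture of its own. The p-values therefore reflect how far these libraries differ among themselves, which may be technical. Each library held 17141478 to 18530670 counts.

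MYC is a basic helix-loop-helix leucine zipper factor that binds DNA as a heterodimer with MAX at E-boxes, with the core CACGTG, and raises transcription of genes for ribosome assembly, nucleotide synthesis and cell division. The MXD proteins, MXI1 and MNT also pair with MAX, bind the same sites and recruit the SIN3 corepressor with its histone deacetylases. MGA carries MAX into a Polycomb-type repressor complex. Lung tumours often carry gains of MYC, and losses of MAX or MGA are known in a part of them.

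The labelled cell type was compared with its markers before the results. The epithelial keratins KRT7, KRT8 and KRT18 were abundant, with 14876 to 17364, 16606 to 30359 and 7930 to 9867 counts per library. Of the 8 epithelial and detoxification genes listed for A549, 3 others were near 0, with 2 to 8 counts of KRT19, 1 to 14 of the aldehyde dehydrogenase ALDH1A1 and 8 to 26 of the aldo-keto reductase AKR1B10. CDKN2A, which A549 is known to have lost on both alleles and which was looked up after its values were seen, had 2041 to 3370 counts in every library. AKR1C1 and EPCAM lay between, with 198 to 605 and 52 to 133 counts. Of this list AKR1C1 and EPCAM rose with B35, 2.38-fold and 2.14-fold, and KRT8 fell, 1.49-fold, and the part of these changes in the results below was not tested. The counts of CDKN2A, KRT19, ALDH1A1 and AKR1B10 go against the label, which is kept here only as the name the submitters gave. Markers of blood, endothelial and stromal cells were low: CD3E had no count in any library, PTPRC had 0 to 1, CD14 0 to 2 and COL1A2 0 to 2, while COL1A1 reached 334 to 455. Their summed level over 10 genes was 3.42 to 3.56 FPKM (fragments per kilobase of exon, scaled to library size) in control cells and 2.70 to 2.80 with B35, and the part of this difference in any result below was not tested.

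Over all genes, 2276 of 14773 changed (15.4%) in the quasi-likelihood test of edgeR at a Benjamini-Hochberg adjusted p under 0.05, of which 1303 were higher with B35 (8.82%) and 973 lower (6.59%). The 3 B35 and 3 control libraries did not overlap in 5365 genes (36.3%). In the same fit, 3 of the 8 network genes were called, MXI1, MXD1 and MYC, all of them higher with B35 and none lower, and in 4 of the 8, the same genes and MAX, the groups did not overlap. The median log2 fold change of the 8 genes was 0.23 and that of all genes 0.01. KDM1A, which encodes LSD1, had 198.4 ± 2.56 CPM (counts per library brought to one depth) in control cells and 184.4 ± 8.97 with B35 (SD, n = 3), a log2 fold change of -0.11 ± 0.08 (SE), with an edgeR adjusted p of 0.432. A bulk library cannot tell fewer cells with a transcript apart from less of it per cell, here or in any value that follows.

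**Figure D1:**
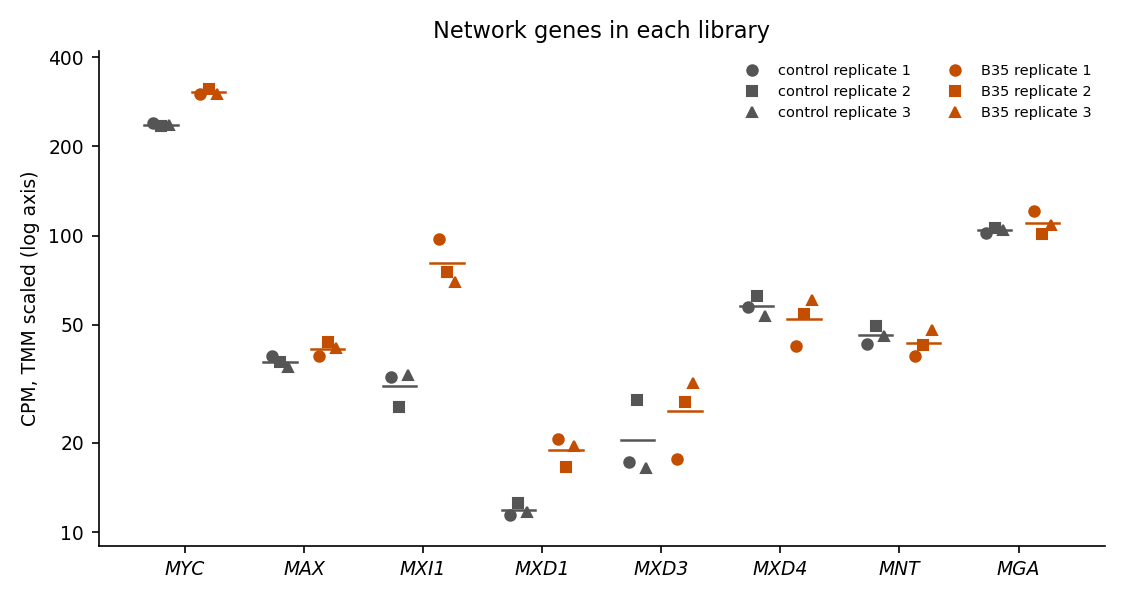
Level of each of the 8 network genes in the 3 control and 3 B35 libraries, in CPM on a log axis, with a point for each library and lines for group means. MXI1 moved from 26.4 to 33.8 CPM in control libraries to 69.6 to 97.5 CPM with B35, and the points of MXD3, MXD4, MNT and MGA overlap between groups.

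The activating arm was measured first. MYC (ENSG00000136997, chromosome 8, 127735434 to 127741434 in GRCh38, plus strand) stood at 240.5, 234.2 and 235.8 CPM in control replicates 1, 2 and 3. With B35 it stood at 301.3, 311.6 and 300.0 CPM. Every B35 library lay above every control library, and the spread within each group was small, with means of 236.8 ± 3.3 and 304.3 ± 6.36 CPM (SD, n = 3). The log2 fold change was 0.36 ± 0.08 (SE), or 1.29-fold. No exon of another gene overlapped MYC. The call rested on all 3 control libraries: without control replicate 1, 2 or 3 the edgeR adjusted p was 0.0518, 0.0686 or 0.0957, while the log2 fold change stayed between 0.34 and 0.37 over all 6 single-library omissions.

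MAX (ENSG00000125952, chromosome 14, 65006174 to 65102695, minus strand), a partner shared by the other proteins of the network, was at 39.1, 37.4 and 36.2 CPM in the control libraries. With B35 it was at 39.2, 43.9 and 41.6 CPM. The groups were set apart only by the narrow gap between control replicate 1 and B35 replicate 1. The log2 fold change was 0.15 ± 0.10 (SE). The antisense gene AL139022.1 shares 184 of its exon bases and had at most 8 counts in a library. MYCL, a MYC paralogue, was at 1.43 ± 0.363 CPM in control cells and 1.11 ± 0.342 with B35 (SD, n = 3) and was not called, and MYCN was too low to test.

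On the repressor side, MXI1 (ENSG00000119950, chromosome 10, 110207605 to 110287365, plus strand) had the largest difference of the 8 genes. It stood at 33.3, 26.4 and 33.8 CPM in control replicates 1, 2 and 3 and at 97.5, 75.3 and 69.6 CPM with B35. The lowest B35 library was above the highest control library by more than the range of the control libraries, and B35 replicate 1 was the highest of its group. Means were 31.2 ± 4.17 and 80.8 ± 14.7 CPM (SD, n = 3), a log2 fold change of 1.38 ± 0.15 (SE), or 2.59-fold. The call held in each of the alternative fits, with a highest edgeR adjusted p of 0.00302 when single libraries were left out. The antisense gene AL360182.2, which shares 205 of its exon bases, had no counts.

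Promoter sequence is shown for MXI1 because it had the largest change of the network, and because FOXO factors and hypoxia-inducible factors are known to induce it. RefSeq's table for GRCh38.p14, covering 250 bases before to 50 after each start, holds 3 starts of MXI1. The 250 bases before the second start, chr10:110209981-110210230 on the plus strand, lie in an intron of longer MXI1 transcripts. Capitals mark a match to the forkhead core GTAAACA and a match to the hypoxia core ACGTG, both on the opposite strand, so that they read TGTTTAC and CACGT here.
MXI1 second start: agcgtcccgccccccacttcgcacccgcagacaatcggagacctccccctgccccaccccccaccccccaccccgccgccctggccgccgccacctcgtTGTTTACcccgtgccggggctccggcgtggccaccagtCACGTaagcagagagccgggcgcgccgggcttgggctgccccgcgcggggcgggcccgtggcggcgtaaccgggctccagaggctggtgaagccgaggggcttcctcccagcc
A forkhead match also lies across the third start, at chr10:110225983-110226012, in an untranslated exon of one MXI1 transcript, in the sense direction.
MXI1 start in that exon: cgcggggagagGTAAACAaaccacgcgcgg
Searched on both strands, the forkhead core was found in 3.42% of 35116 promoters in the table and the hypoxia core in 21.4%. Counted by gene over any entry, the shares were 3.59% and 32.3% of 10257 tested genes. Every E-box CACGTG contains the hypoxia core. The first MXI1 start held neither of these motifs nor the E-box. These are letter matches, and the files hold no binding data.

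Of the 5 factors known to induce MXI1 that were listed, 1 rose, none fell and 4 were not called. Their median log2 fold change was 0.22, against 0.01 over all genes, of which 8.82% rose and 6.59% fell. FOXO1, a forkhead factor restrained by insulin and growth factor signalling, rose from 17.98 to 28.4 CPM, a log2 fold change of 0.66 ± 0.15 (SE; edgeR adjusted p = 0.0132), and the call was lost without control replicate 1 or 3. FOXO3 was at 51.0 ± 1.23 CPM in control cells and 62.4 ± 4.43 with B35 (SD, n = 3; edgeR adjusted p = 0.0605), and was called higher with upper-quartile scaling and without B35 replicate 3. HIF1A was at 118.8 ± 13.9 and 124.3 ± 24.6 CPM (SD, n = 3; edgeR adjusted p = 0.804), and EPAS1 and ARNT were not called either.

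MXD1 (ENSG00000059728, chromosome 2, 69897688 to 69942945, plus strand), a repressor known to be raised as cells leave the cycle and differentiate, was at 11.4, 12.5 and 11.7 CPM in the control libraries. With B35 it was at 20.6, 16.5 and 19.5 CPM. The groups did not overlap, and the B35 libraries were spread more widely than the controls. The log2 fold change was 0.67 ± 0.13 (SE), or 1.59-fold, and the call held in each of the alternative fits, with a highest adjusted p of 0.0447 in edgeR when single libraries were left out. SNRNP27 shares 237 of its exon bases on the same strand.

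MXD3 and MXD4 differed from MXI1 and MXD1 in that their groups overlapped. MXD3 (ENSG00000213347, chromosome 5, 177301461 to 177312757, minus strand), a family member known to be expressed in dividing cells, was at 17.2, 27.9 and 16.5 CPM in the control libraries and at 17.6, 27.5 and 31.8 CPM with B35. The libraries fell near 17 or near 30 CPM in both groups, and the log2 fold change was 0.32 ± 0.24 (SE), the widest error of the 8 genes. PRELID1 on the opposite strand and RAB24 on the same strand cover 1158 and 926 of its 5154 exon bases. How reads in these bases were assigned, or whether they were counted, is not known. For PRELID1 this depends on the strand setting of the counting, which was not stated, and for RAB24 it does not. PRELID1 itself had 1268 to 2203 counts per library and RAB24 95 to 213. MXD4 (ENSG00000123933, chromosome 4, 2247432 to 2262294, minus strand) was at 57.3, 62.6 and 53.5 CPM in the control libraries and at 42.3, 54.5 and 60.4 CPM with B35, a log2 fold change of -0.14 ± 0.13 (SE). B35 replicate 1 was the lowest library for MXD4 and stood apart from the other libraries on the second principal component of all genes.

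MNT (ENSG00000070444, chromosome 17, 2384060 to 2401118, minus strand), the repressor known to be present in resting and dividing cells alike, was at 43.0, 49.6 and 45.9 CPM in the control libraries and at 39.3, 42.7 and 47.9 CPM with B35. The groups overlapped, with a log2 fold change of -0.09 ± 0.11 (SE). All 1065 exon bases of the antisense gene AC006435.1 lie within the 8728 of MNT. It had no counts, which cannot show whether reads were lost there, since the strand setting was not stated. MGA (ENSG00000174197, chromosome 15, 41621224 to 41773081, plus strand) was at 102.4, 106.3 and 104.7 CPM in the control libraries and at 121.2, 101.2 and 108.7 CPM with B35. Its groups overlapped as well, with a log2 fold change of 0.08 ± 0.09 (SE). All 510 exon bases of AC073657.1, on the opposite strand, lie within the 17651 of MGA, and its lack of counts is limited in the same way.

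MNT and MXD4 shared an upstream E-box and a high GC content. Each had an E-box upstream of its start in the RefSeq table, shown here on the gene's own strand with the E-box in capitals, and GENCODE 29 places no transcript at either position.
MXD4, chr4:2262330-2262359, minus strand: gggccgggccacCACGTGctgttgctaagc
MNT, chr17:2401236-2401265, minus strand: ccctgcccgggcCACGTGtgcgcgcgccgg
The promoters of the table held an E-box in 7.26% of cases. Counted by gene, an E-box was present in any entry of 12.7% of 10257 tested genes. The entries of MXD1, MXD3, MAX, MGA and MXI1 held none. MNT and MXD4 were also GC-rich, with 61.4% and 57.6% GC in their longest annotated transcripts, as was MXD3 with 61.3%. The median over all genes tested was 48.7%, while MXD1, MXI1 and MGA had 42.0% to 43.7%. In a fit with offsets for GC content and length, added after the data were seen, MNT and MXD4 were called lower, with log2 fold changes of -0.24 and -0.27 (edgeR adjusted p = 0.0283 and 0.0437), which brought the members called to 5. The offsets remove trends with GC content, so these calls and the GC content of the genes are not separate observations. That fit called 4143 of 14773 genes (28.0%) and 2488 of them lower (16.8%), so calls were more frequent over all genes as well.

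**Figure D2:**
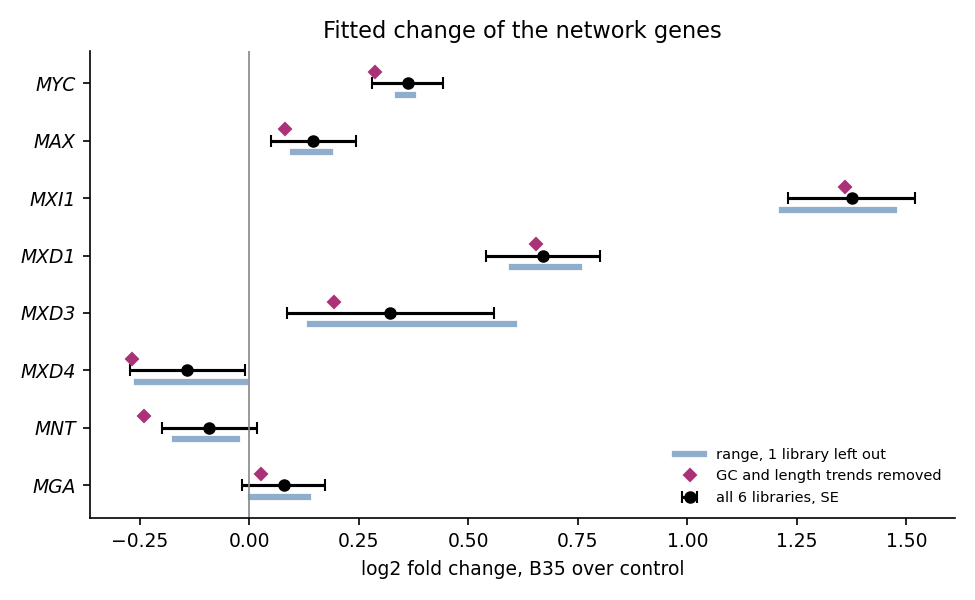
Log2 fold change of B35 over control for the 8 network genes, with black points and bars for the fit with all 6 libraries and its SE, blue lines for the range when single libraries are left out, and diamonds for the fit with GC and length offsets. MXI1 at 1.38 and MXD1 at 0.67 lie farthest above 0, MYC follows at 0.36, and the bars of MGA and MNT reach across 0.

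Levels of different genes were compared per length, in FPKM. The length behind these values was that of all annotated exons of a gene merged, 3001 bases for MYC and 4430 for MAX. A gene with many alternative exons can therefore read lower, and the order and ratios below depend on these lengths. In control cells MYC was at 78.6 ± 1.09 FPKM (SD, n = 3), and MAX came next at 8.44, followed by MXD4 at 8.15, MXI1 at 6.73, MGA at 5.89, MNT at 5.27, MXD3 at 3.96 and MXD1 at 1.86 FPKM. With B35 MYC was at 99.9 ± 2.76 FPKM and MXI1, at 17.3 ± 3.17 FPKM (SD, n = 3), came next, without overlap between its libraries and those of MAX. Among neighbours in this order, the ranges of MAX and MXD4 and of MXI1 and MGA overlapped in control cells, those of MXD4 and MGA with B35, and those of MNT and MXD3 in both groups. The ranges of MXD1 and MXD3 did not overlap in either group, and MXD1 was the lowest of the network in both.

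The level of MYC against its competitors was described by the sum of MXD1, MXD3, MXD4, MXI1, MNT and MGA. This sum went from 31.9 ± 1.38 to 43.5 ± 1.10 FPKM, and because MYC was higher too, its ratio to MYC was 0.406 ± 0.0226 in control cells and 0.436 ± 0.0217 with B35 (SD, n = 3). Single libraries had ratios of 0.389, 0.432 and 0.396 in control replicates 1, 2 and 3 and of 0.450, 0.411 and 0.446 with B35, so the groups overlapped. Without MGA in the sum the ratios were 0.317, 0.354 and 0.321 in the control libraries and 0.382, 0.355 and 0.384 with B35, and the groups no longer overlapped, by a margin of 0.355 against 0.354. MXI1 made up 21.2% ± 3.69 of the sum in control cells and 39.7% ± 6.57 with B35, and its ratio to MYC went from 0.0856 ± 0.0108 to 0.173 ± 0.0328 (SD, n = 3). The FPKM of MYC was 9.31 ± 0.285 times that of MAX in control cells and 10.8 ± 0.458 times with B35 (SD, n = 3). Transcript levels say nothing of the amounts of protein, which for MYC is short-lived.

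**Figure D3:**
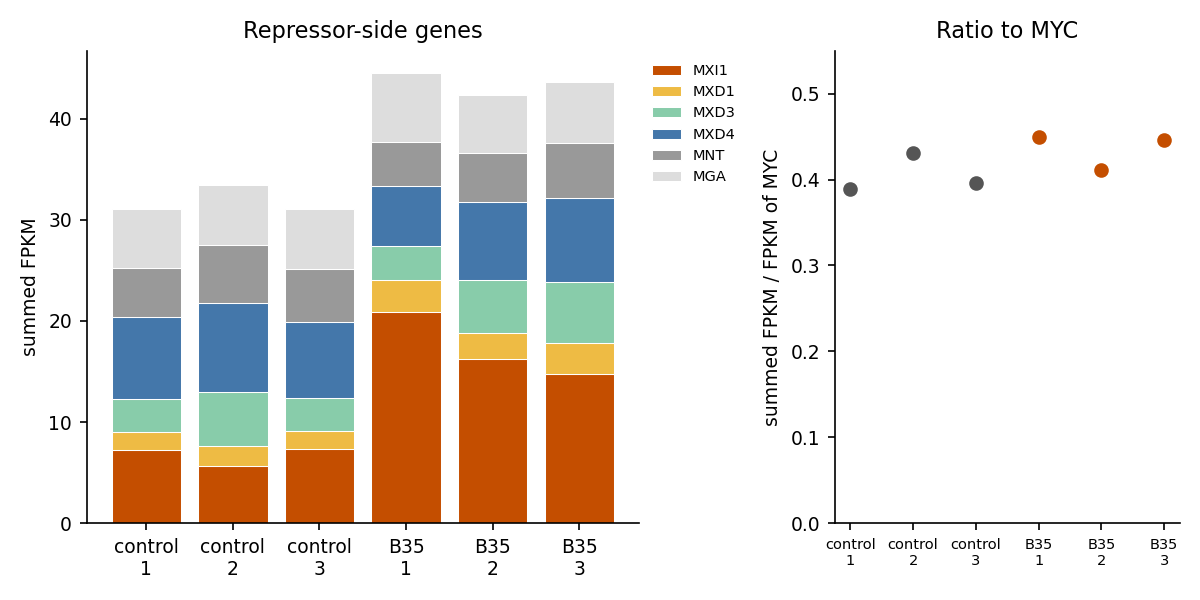
Left, FPKM of the 6 repressor-side genes stacked into 1 bar for each library, and right, the ratio of that sum to the FPKM of MYC in the same library, with both axes starting at 0. The MXI1 part of the bar grows from 5.69 to 7.32 FPKM in control libraries to 14.8 to 20.8 FPKM with B35, while the ratios of the groups overlap.

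The genes whose levels over the 6 libraries were most like those of MYC, by Pearson's r of log2 CPM among 9845 genes with a mean of 10 CPM or more, were RNF208 (r = 0.999), GRB7, ACP6, ADSSL1 and KIF2C (r = 0.997). For MXI1 they were ARRDC3 (r = 0.996), MED12, ZFP36L2, GPR137B and ARFGEF3 (r = 0.995). All 6 libraries share the separation of the groups, which any gene that differs between them follows, so these values only describe the pattern.

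MLX is a MAX-like protein that pairs with MLXIP and MLXIPL, the glucose-sensing factors that form an arm beside the MYC network. None of these 3 genes was called, with a median log2 fold change of -0.09 and values of -0.09 for MLX, -0.20 for MLXIP and 0.24 for MLXIPL. TXNIP and ARRDC4, the best known targets of that arm, both rose. TXNIP, which inhibits thioredoxin and glucose uptake, was at 39.5 to 41.6 CPM in the control libraries and at 163 to 171 CPM with B35, a log2 fold change of 2.04 ± 0.09 (SE), or 4.11-fold. ARRDC4, a related arrestin, rose from 5.04 to 8.44 CPM (log2 fold change 0.74 ± 0.17, SE; edgeR adjusted p = 0.0142), a call lost without control replicate 3. Among 7 other E-box factors, 1 rose (14.3%, against 8.82% over all genes) and none fell. The rise, of BHLHE41, was lost whenever any single library was left out.

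Of the 17 genes listed for the SIN3 corepressor, none rose and 3 fell (17.6%, against 6.59% over all genes), BRMS1, RBBP4 and RBBP7. Among genes with a mean of 10 CPM or more 9.08% fell. The median log2 fold change of the list was -0.09. The call of BRMS1 was lost without control replicate 2 or 3, that of RBBP4 without control replicate 1 or 3 or B35 replicate 3, and that of RBBP7 without any one control library or B35 replicate 3. SYNC on the opposite strand shares 18.0% of the exon bases of RBBP4. The scaffolds SIN3A and SIN3B were not called, at 81.9 ± 5.33 and 82.3 ± 3.04 CPM in control cells and 90.9 ± 10.5 and 92.8 ± 5.07 with B35 (SD, n = 3). The deacetylases HDAC1 and HDAC2 missed the threshold, with log2 fold changes of -0.29 ± 0.10 and -0.31 ± 0.10 (SE; edgeR adjusted p = 0.066 and 0.0544), and both were called lower with DESeq2 and with GC and length offsets, HDAC2 also without B35 replicate 1. Of 13 genes of the Polycomb-type complex that holds MGA, none rose and 2 fell (15.4%), E2F6 and L3MBTL2, with a median of -0.16. Both calls were lost without any one control library or B35 replicate 3, and that of L3MBTL2 without B35 replicate 2 too. Genes of this complex that fell numbered 4 without B35 replicate 1, 5 with DESeq2 and 6 with the offsets. Over all genes, 1520, 1167 and 2488 fell in those fits. Called higher was 1 gene with upper-quartile scaling and with the offsets, TFDP2, and 1 without B35 replicate 1, RING1.

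Genes acting on MYC itself were followed in 3 lists, and their falls stand beside the 6.59% that fell over all genes. Among genes with a mean of 10 CPM or more this share was 9.08%. Of 17 cofactors of MYC, none rose and 4 fell (23.5%), the acetyltransferase KAT2A, the chromatin remodelling subunits SMARCB1 and ACTL6A, and the ATPase RUVBL1, with a median log2 fold change of -0.16. The falls of KAT2A and SMARCB1 were called in each alternative, while that of RUVBL1 was lost without any one control library and that of ACTL6A without control replicate 1 or 3, so that 2 fell without control replicate 1 or 3. DERL3 on the opposite strand shares 17.7% of the exon bases of SMARCB1. With the offsets 9 cofactors fell, and CDK9, the kinase of the elongation factor P-TEFb, with a log2 fold change of 0.32 (edgeR adjusted p = 0.0566), was called higher there, with upper-quartile scaling and without B35 replicate 1. Of 15 genes for the turnover of MYC protein, none rose and 1 fell, the ubiquitin ligase subunit SKP2 (6.7%), a call lost without any one library other than B35 replicate 1, without which 2 genes fell and 1 rose. With the offsets 3 fell. Of 9 genes for the control of the MYC transcript, none rose and 3 fell (33.3%), FUBP1, which binds an element upstream of MYC, and the RNA-binding proteins ELAVL1 and HNRNPK, with a median of -0.20. FUBP1 kept its call in each alternative, ELAVL1 lost it without control replicate 3, and HNRNPK lost it without any one control library or B35 replicate 3, so that 1 gene fell without control replicate 3. With the offsets 5 fell. Over all genes, 418 and 294 fell without control replicate 1 and 3, 1520 without B35 replicate 1 and 2488 with the offsets.

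Genes known to be induced by MYC were lower or not called while the MYC transcript was higher. Of 55 tested nucleolar and growth genes, none rose, 18 fell (32.7%) and 37 were not called, and 50 had a fitted change below 0. Their median log2 fold change was -0.27, against 0.01 over all genes and -0.03 over genes with a mean of 10 CPM or more, of which 9.08% fell. NOLC1, a nucleolar phosphoprotein, fell from 305.9 ± 9.09 to 202.7 ± 17.7 CPM (SD, n = 3), a log2 fold change of -0.59 ± 0.09 (SE; edgeR adjusted p = 0.00267). HSPD1, the mitochondrial chaperonin, fell from 741 to 519 CPM (-0.51 ± 0.10, SE). AIMP2, a scaffold of tRNA synthetases, fell from 41.5 to 27.2 CPM (-0.61 ± 0.11, SE), but EIF2AK1 on the opposite strand shares 28.9% of its exon bases.

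The list also held UTP20, a small-subunit processome protein, which fell from 66.2 to 44.9 CPM (log2 fold change -0.56 ± 0.11, SE), a call lost without control replicate 3. The rRNA methylation scaffold NOP56, the polymerase I cofactor TCOF1, the replicative helicase subunits MCM4 and MCM5 and the spermidine synthase SRM fell by smaller or less steady amounts. Calls for MCM4, MCM5, NOP56 and TCOF1 were lost without any one control library or B35 replicate 3, those of NOP56 and TCOF1 also without B35 replicate 2, and that of SRM without control replicate 1 or 3. NPM1, at 1813 ± 173 CPM in control cells and 1549 ± 238 with B35 (SD, n = 3), was not called. IPO4 and NOP2 had too few counts to be tested. The same-strand genes AL136295.4 and AC006064.6 share 69.3% and 54.4% of their exon bases.

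Of 31 tested classical MYC targets in metabolism and the cell cycle, none rose, 12 fell (38.7%, against 6.59% over all genes) and 19 were not called. Among genes with a mean of 10 CPM or more 9.08% fell, and the median of this list was 208.7 CPM. Their median log2 fold change was -0.28, and 26 were fitted below 0. CTPS1, the CTP synthase, fell from 182.8 ± 8.11 to 86.8 ± 3.77 CPM (SD, n = 3), a log2 fold change of -1.07 ± 0.09 (SE; edgeR adjusted p = 8.6e-05), or 2.11-fold lower with B35. CDC25A, the phosphatase that starts S phase, fell 1.88-fold, from 73.6 to 39.1 CPM (edgeR adjusted p = 0.000326). The purine synthesis enzyme GART fell from 288.3 to 210.2 CPM, a call lost without control replicate 3.

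The other falls of that list were the purine enzymes PPAT and PAICS, the kinase NME1, the glycolytic enzymes ENO1 and GPI, the amino acid transporter subunits SLC7A5 and SLC3A2, the nucleolar protein NCL and the cell cycle factor E2F2. NME1 fell from 86.7 to 59.3 CPM (log2 fold change -0.55 ± 0.11, SE), and the readthrough gene NME1-NME2 shares its exons. Calls for ENO1, GPI, PPAT and SLC3A2 were lost without any one control library, those for GPI and PPAT also without B35 replicate 2 or 3, that for PAICS without control replicate 1 or 3 or B35 replicate 2 or 3, and those for NCL, E2F2 and SLC7A5 without control replicate 3. ODC1, the ornithine decarboxylase often used as a readout of MYC, was at 333.8 ± 10.5 CPM in control cells and 330.8 ± 20.8 with B35 (SD, n = 3). CDK4, with 166.8 ± 3.15 and 159.0 ± 23.3 CPM (SD, n = 3), was not called either, but TSPAN31 on the opposite strand shares 43.2% of its exon bases.

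Both counts were smaller when a control library was left out, as was the number of genes that fell over all genes. Without control replicate 1, 2 or 3, 6, 8 or 4 nucleolar and growth genes fell, and 418, 499 or 294 of all genes. Without control replicate 1 or 3, 7 or 3 classical targets fell. With GC and length offsets, added after the data were seen, the counts were 35 and 19, in a fit that called 2488 of all 14773 genes lower (16.8%), against 973 without the offsets. With upper-quartile scaling, MCM5, TCOF1, GPI and PPAT of these lists, SKP2 and L3MBTL2 were no longer called. All 30 genes that fell in the lists stayed below 0 in each of the 15 alternatives, and AIMP2, CDC25A, CTPS1, HSPD1, NME1 and NOLC1 were called in every one.

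**Figure D4:**
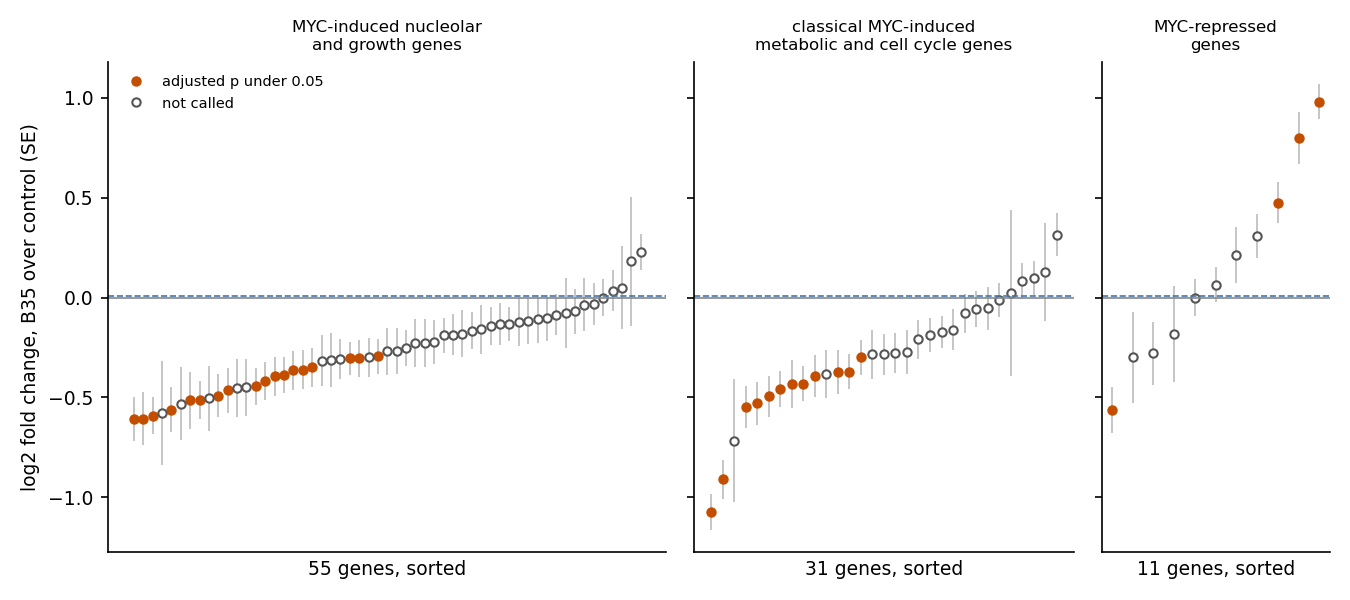
Log2 fold change of B35 over control for the tested genes in the MYC target lists, 1 point per gene in order of its value, with bars for the SE, filled points for genes that passed the test and a dashed line at the median of all genes, 0.01. In both induced lists most points lie below the line, with CTPS1 lowest at -1.07, and in the repressed list NDRG1 lies highest at 0.98.

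E-boxes were counted in the promoters of these lists, because the network is known to act through them. An E-box was present in 23 of 44 nucleolar and growth genes with an entry (52.3%) and in 11 of 28 classical targets (39.3%), against 12.7% of 10257 tested genes with an entry. Among the genes that fell the counts were 5 of 12 and 4 of 12. The lists were assembled from known MYC targets, so their share of E-boxes is no finding. The sites of 4 genes whose falls are given above are shown on the gene's own strand with the E-box in capitals.
HSPD1, chr2:197500345-197500374, minus strand: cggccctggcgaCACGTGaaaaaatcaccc
AIMP2, chr7:6009478-6009507, plus strand: ccgggcgctggcCACGTGcaggtaggagcg
UTP20, chr12:101280083-101280112, plus strand: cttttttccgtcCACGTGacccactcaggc
NME1, chr17:51153579-51153608, plus strand: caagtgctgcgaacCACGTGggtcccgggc
The site of HSPD1 also lies in an untranslated exon of HSPE1, that of AIMP2 in an AIMP2 coding exon before the second start, that of UTP20 just before the transcript, and that of NME1 in its untranslated exon. CTPS1, with the strongest fall, had no E-box in its entries.

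Of 11 tested genes that MYC is known to repress, 3 rose (27.3%), 1 fell (9.1%) and 7 were not called, with a median log2 fold change of 0.06. Over all genes, 8.82% rose and 6.59% fell. NDRG1, a stress and differentiation gene also induced by hypoxia, rose from 312 to 616 CPM (log2 fold change 0.98 ± 0.09, SE). The cyclin-dependent kinase inhibitors CDKN2B and CDKN1A rose from 12.4 to 21.7 CPM and from 123 to 171 CPM. The call of CDKN1A was lost without control replicate 1 or 3. THBS1, the angiogenesis inhibitor thrombospondin, fell (log2 fold change -0.56 ± 0.11, SE), against the direction of the other called genes of the list. None of the 6 genes of this list with a promoter entry held an E-box or the hypoxia core, and 1 of the 6 held the forkhead core.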

How the data were processed

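RNA from 6 libraries was sequenced after a NEBNext Ultra preparation, per the labels' protocols. The submitters' processing notes name hg38, HISAT2 2.0.5 for alignment and featureCounts 1.5.0-p3 for counting; no source used here gives the strand setting. The deposited files hold whole-number counts per gene and the authors' FPKM values per gene. FPKM was used for levels between genes, and counts for every test.

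Symbols, positions and exon overlaps came from GENCODE 29, which held all 58735 identifiers. Counts were fitted in edgeR 4.0.16 (R 4.3.3) after filterByExpr (minimum count 10) and TMM scaling, two-sided, adjusted by Benjamini-Hochberg over 14773 genes at 0.05, and the script was tested on simulated data. CPM are counts scaled with the TMM factors. SE is the log2 fold change divided by the square root of F. Alternatives were other scalings and filters, robust dispersion, a replicate block, DESeq2 1.42.0, limma-voom 3.58.1 and each library left out. Offsets for GC content and length were added after the data were seen.

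Members and gene lists were chosen with earlier results of these data known. Genes were named by rule: the members, genes whose exons overlap them, KDM1A, up to 4 called genes of each list in order of p, or the 2 with the highest mean CPM where none was called, every gene of lists of 3 or fewer, and the 5 genes most like MYC and MXI1. ODC1, CDK4, NPM1, CDKN2A, CDK9, TFDP2, RING1, the further falls of the target lists and uncalled factors were chosen after their values were seen. Each library counted as 1 replicate. Between replicates, chi-square over its degrees of freedom was 4.71 to 35.2, above sampling noise. This cannot tell separate cultures from separate preparations of the same culture. Promoters came from RefSeq (GRCh38.p14).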

Additional observations from a re-analysis of the deposited data

How the results depend on the processing

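MXI1 and MXD1 were called higher in each of the 15 alternatives, and no member turned its direction in any of them. The members were chosen with this contrast known, so these refits of the same libraries describe dependence on processing and give them no support. Genes changed over all genes ranged from 881 to 3342 when single libraries were left out, 881 without control replicate 3 and 3342 without B35 replicate 1, and reached 4143 with GC and length offsets, which gave 5 members called, 2 of them lower (MXD4 at -0.27 and MNT at -0.24, log2). Members called were 2 to 3 and the log2 fold change of MYC 0.34 to 0.37 over the single-library omissions, with the MYC call lost without any one control library. SIN3 genes called lower were 0 to 5 over those omissions, 6 with DESeq2 and 7 with the offsets. Over all genes, 294 to 1520 were called lower over those omissions, 1167 with DESeq2 and 2488 with the offsets. Nucleolar and growth genes were 4 to 24 lower and 0 to 2 higher over the omissions, with 35 lower under the offsets. Classical targets were 3 to 14 lower and 0 to 1 higher over the omissions, 19 lower under the offsets and 1 higher with the replicate block. MYC-repressed genes called higher were 2 to 5 over the omissions. Left out of the repressor sum, MGA lowers the ratio to MYC to 0.331 in control cells and 0.374 with B35. The cause of these shifts was not tested.

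With the replicate block 2855 genes changed and 3 members were called, with CDK9 and TFDP2 called higher. Same-numbered libraries correlated at 0.163, 0.016 and -0.063 in their deviations from the group means. Only the libraries numbered 1 were each other's best match, while B35 replicate 2 also correlated best with control replicate 2. These values cannot show whether same-numbered libraries shared a culture or a batch. Depth limits MYCL and the genes near 1 CPM, and 3 libraries a group cannot give an exact permutation p under 0.1.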
